A study of Mus musculus with 12 samples.

Results

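The SLC25 mitochondrial carriers are described here by their m6A peaks in mouse liver. N6-methyladenosine (m6A) is a methyl mark inside mRNA, written by a complex whose catalytic subunit is METTL3. The members are all peaks of the deposited table whose gene symbol starts with Slc25a. They are 48 peaks in 28 genes, of 17503 peaks in 10277 genes in all. RefSeq (GRCm38.p6, the same build as mm10) holds 47 protein-coding genes of that name, and no peak of the other 19 was analysed here. These 19 include Slc25a4 and Slc25a5, which encode ADP/ATP carriers, and Slc25a12, the paralogue of Slc25a13. Of the 19, 4 lie on the X chromosome, which held no peak of the 28 genes.

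The series compared livers of Mettl3-deficient and wild-type C57BL/6 mice by immunoprecipitation of fragmented poly(A) RNA with an anti-m6A antibody (IP), followed by sequencing of the IP and of the input mRNA. There were 12 libraries, 3 replicates of each of 4 groups: Mettl3-deficient IP, Mettl3-deficient input, wild-type IP and wild-type input. The series title calls the liver postnatal, while age, sex and the way in which Mettl3 was lost do not appear in the labels. The values come from 1 table of the authors' own comparison, with a log2 fold change and a false discovery rate (FDR) per peak, so no value per library, no read depth and no spread between mice could be given. The header does not name the numerator of the fold change. Since METTL3 writes the mark, a negative value likely stands for less m6A in Mettl3-deficient liver, but the text speaks only of negative and positive changes. Peaks with an FDR of at most 0.05 (a log10 FDR of -1.30) are termed called. Whether that FDR takes in the spread between mice is not known. The defining hepatocyte genes Alb, Ttr, Apoa1, Apob and Hnf4a all had called peaks, where 76.2% of all listed peaks were called. So did the 9 endothelial, stellate and macrophage markers examined (among them Pecam1, Dcn and Csf1r), and no expression level was used, so these calls do not check the tissue.

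SLC25 proteins sit mostly in the inner mitochondrial membrane and exchange nucleotides, phosphate, carboxylates, amino acids, cofactors and iron between the cytosol and the matrix. In the liver they serve the urea cycle, gluconeogenesis, fatty acid oxidation and the supply of ATP. The antibody used in such assays recognises m6A inside the transcript and also the related cap-adjacent modification m6Am, which another enzyme makes on transcripts that start with adenosine. The part of m6Am in the values below was not tested. All 28 genes carry the GO term mitochondrion in the table, as 1172 of all 10277 genes do. The narrower term mitochondrial inner membrane was attached to 24 of the 28, and to 278 of all genes. Slc25a17, a carrier of the peroxisome, and Slc25a46, which acts on the outer membrane, are known exceptions in location.

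The carriers with a positive 5′ UTR peak and a negative 3′ UTR peak carry the main pattern described below. The bases around their transcript starts are shown first. Each line gives 20 bases before and 10 bases from a RefSeq start near the gene's 5′ UTR peak on GRCm38.p6, which need not be its outermost start. The bases run in the direction of transcription, with the first transcribed base in capitals.
Slc25a10: aaggctggagtccggtggcgGgcggagtcc
Slc25a11: catcttagccccgccttattCcccggctgc
Slc25a13: aatgggctgacggcacccgcAtgacccgcg
Slc25a15: ggaggttcgggcgggcgggcGcggtggcca
Slc25a20: gcccacggccccgcccacctGaatgtaggt
Slc25a33: cccggcctccgccacgtgacGgccgcgcgc
These windows lie at chr11:120491817-120491846 (plus strand), chr11:70647030-70647059 (minus), chr6:6217164-6217193 (minus), chr8:22398268-22398297 (minus), chr9:108662116-108662145 (plus) and chr4:149774258-149774287 (minus), in the order shown. Of the 10 genes with a called 5′ UTR peak, 8 had a RefSeq start whose wider window, 250 bases before to 50 after it, overlapped the peak, with 9 starts between them. The peaks of Slc25a11 and Slc25a13 begin 31 and 30 bases after the RefSeq start shown and so do not reach the bases printed for them. Their deposited distance to the transcript start is 0, so the start used there differs. The RefSeq spans of Slc25a11, Slc25a13 and Slc25a15 begin farther upstream than the starts shown, at 70647531, 6217304 and 22398621. The first base was G at 5 of the 9 starts, A at 2 and C at 2, against G at 35.6%, A at 34.4% and C at 16.3% of all 32851 starts in the RefSeq table. The letters GGAC, a common core of m6A sites, occurred within the first 50 transcribed bases at 2 of the 9 starts, both outside the 6 genes shown. GGAC occurred there in 18.9% of all starts, and GTCC, its reverse complement, at 1 of the 9 and in 17.4% of all. A match of letters describes the window only. The sequences under the 3′ UTR and exon peaks were not used here.

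The carrier transcripts carried changes of both signs, and the larger ones were negative. Of the 48 peaks, 44 (91.7%) were called, against 76.2% of all listed peaks. The called peaks divide into 24 negative and 20 positive, where 40.6% of all listed peaks were called negative and 35.6% positive. Over the 24 negative peaks the median log2 fold change was -2.06, a ratio of 0.241, with a range of -2.87 to -0.53. Over the 20 positive peaks it was 0.82, a ratio of 1.77, with a range of 0.28 to 1.50. For all listed peaks these medians were -1.34 and 0.73. A called change below -2 on the log2 scale was seen in 13 of the 44 called carrier peaks (29.5%) and in 10.1% of all called peaks. No carrier peak lay within 0.25 of 0, and 121 (0.691%) of all listed peaks did, so a gap there is a trait of the whole table. The median over all 48 carrier peaks was -0.54, and that over all listed peaks was 0.34. Because the carrier values fall on both sides with a gap around 0, that median moves with a few peaks: over the 45 that overlap the RefSeq span of their gene it was 0.28. These figures describe the table, the carriers are part of the set they stand beside, and no test of the difference was made.

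Most carriers had a negative leading peak. The leading peak of a gene is the one with the smallest FDR. By that peak 19 of the 28 genes were negative, 8 positive and 1 not called, while 47.6% of all genes were called negative and 33.6% positive. Among genes with a called leading peak, 70.4% of the carriers and 58.6% of all genes were negative. The median of the leading peaks was -1.34 for the carriers and -0.52 for all genes. For the carriers it was -0.87 with peaks of up to 1000 bp alone, and -0.47 when a gene's peaks were averaged instead. Other solute carrier genes, 136 in number, had a median of -1.09 and a negative share of 75.0% among those called. Counting all called peaks, 12 carriers had negative peaks only, 7 positive peaks only, 8 had both and 1, Slc25a36, had none.

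**Figure D1:**
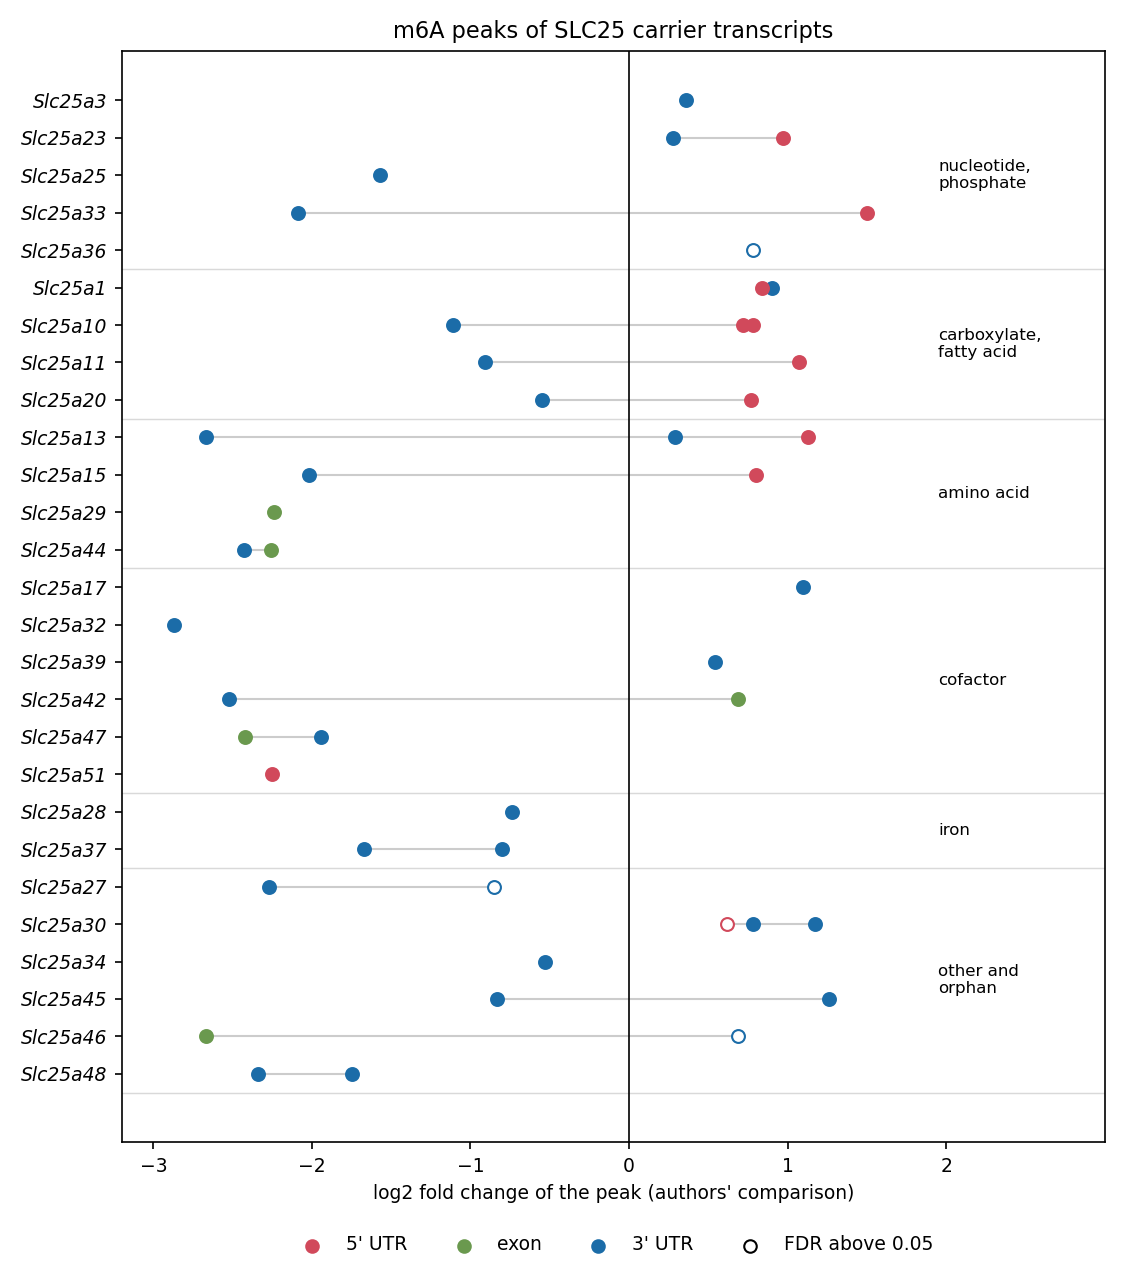
Each row is 1 SLC25 gene, grouped by transported substrate, and each point 1 peak at its deposited log2 fold change (horizontal axis). Colours give the annotated feature, open points have an FDR above 0.05, and grey lines join the peaks of a gene. The 24 called negative peaks reach -2.87, while no positive peak passes 1.50.

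The amino acid carriers had the lowest median of leading peaks among the 6 substrate groups. All 4 genes with a peak had a negative leading peak, with a group median of -2.34. Over all genes 47.6% had a called negative leading peak, and the median was -0.52. Of the 8 peaks of the group 5 were negative and 3 positive, beside 40.6% and 35.6% of all listed peaks. With 4 genes, these figures describe the genes alone. Slc25a13 encodes citrin, the aspartate/glutamate carrier of liver that feeds the urea cycle and the malate-aspartate shuttle. In the authors' deposited table its peak at chr6:6042085-6042264 in the 3′ UTR stood at -2.67 (log10 FDR -186), a ratio of 0.157. Slc25a15 encodes the ornithine carrier of the urea cycle. The authors' deposited table gives -2.02 for its peak at chr8:22377437-22379398 in the 3′ UTR, at the floor of the FDR scale (log10 FDR -434). Both urea cycle carriers also held called positive 5′ UTR peaks, at 1.13 in Slc25a13 and 0.80 in Slc25a15 in the authors' deposited table. Slc25a44, a carrier of branched-chain amino acids, had 2 negative peaks and no positive one. They stood in the authors' deposited table at -2.43 in the 3′ UTR (log10 FDR -234) and at -2.26 in exon 2 of 3 (log10 FDR -66.5). For Slc25a29, a carrier of basic amino acids, the authors' deposited table gives -2.24 in exon 3 of 4 (log10 FDR -21.2). No peak of the other 5 amino acid carriers in RefSeq, among them the glutamate carrier gene Slc25a22 and the glycine carrier gene Slc25a38, was analysed here.

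The cofactor carriers were split. By leading peak 4 of 7 genes were negative and 3 positive, beside 47.6% and 33.6% of all genes. Their 9 peaks held 5 negative and 4 positive calls, beside 40.6% and 35.6% of all listed peaks. The lowest value of the whole family was in Slc25a32, which encodes the carrier of folate and FAD: the authors' deposited table gives -2.87 in its 3′ UTR (chr15:39095514-39095754, log10 FDR -12.0), a ratio of 0.137. Slc25a51 encodes the importer of NAD+, and its only peak was the single negative 5′ UTR peak of the family. That peak runs over chr4:45399276-45407236, which is 61.3% of the RefSeq span of the gene, and stood at -2.25 at the floor of the FDR scale in the authors' deposited table. Its label of 5′ UTR thus stands for an interval that covers most of the gene. For Slc25a42, a carrier of coenzyme A, the authors' deposited table gives -2.52 in the 3′ UTR (log10 FDR -46.3) and 0.69 in exon 3 of 9 (log10 FDR -1.76). Slc25a47, a carrier known mainly from liver, stood at -1.94 in its 3′ UTR at the floor of the FDR scale in the authors' deposited table. Another negative peak annotated to Slc25a47, with -2.42 and a log10 FDR of -1.93 in the authors' deposited table, lies 13250 bp outside the RefSeq span of the gene and is tied to it by the annotation alone. The 3 positive genes each had 1 peak. Among them, the authors' deposited table gives 1.10 for Slc25a17 (peroxisomal cofactor carrier, 3′ UTR) and 0.54 for Slc25a39 (glutathione, 3′ UTR).

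Carriers of carboxylates and fatty acids had more positive than negative peaks, mostly in the 5′ UTR. Of their 9 peaks 3 were negative and 6 positive, beside 40.6% and 35.6% of all listed peaks. The positive ones were 5′ UTR peaks except for 1 of Slc25a1, and 2 of them overlap in Slc25a10. Of all listed 5′ UTR peaks 53.4% were called positive. The leading peaks of the 4 genes were negative in 2 and positive in 2, beside 47.6% and 33.6% of all genes. Slc25a1, the citrate carrier that exports citrate for fatty acid synthesis, was positive at both ends. Its values in the authors' deposited table were 0.84 (5′ UTR) and 0.90 (3′ UTR). Slc25a10 (dicarboxylates), Slc25a11 (oxoglutarate) and Slc25a20 (carnitine and acylcarnitines, for fatty acid oxidation) had positive 5′ UTR and negative 3′ UTR peaks. The authors' deposited table gives 3′ UTR values of -1.11 for Slc25a10, -0.91 for Slc25a11 and -0.55 for Slc25a20. The leading 3′ UTR peaks of the urea cycle carriers stood lower, at -2.67 and -2.02, in the authors' deposited table, while the second 3′ UTR peak of Slc25a13, at 0.29, stood above all 3. Whether these values differ between mice could not be tested. Slc25a10 had 2 listed 5′ UTR peaks, the narrow one inside the wide one, at 0.78 and 0.72 in the authors' deposited table, so they are not separate signals.

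Nucleotide and phosphate carriers ranged from -2.09 to 1.50 in the authors' deposited table. By leading peak 2 of their 5 genes were negative, 2 positive and 1 not called, beside 47.6% negative and 33.6% positive over all genes. Slc25a3 encodes the carrier that brings phosphate for ATP synthesis, and its 3′ UTR peak was among the smallest changes of the family, with 0.36 and a log10 FDR of -41.5 in the authors' deposited table. Slc25a23 and Slc25a25 both encode calcium-regulated ATP-Mg/phosphate carriers. They differed in sign, with 0.28 in the 3′ UTR of Slc25a23 and -1.57 in that of Slc25a25 in the authors' deposited table. Slc25a33 and Slc25a36 encode related carriers of pyrimidine nucleotides. In the authors' deposited table Slc25a33 held the highest value of the family, 1.50 in the 5′ UTR (log10 FDR -7.75), beside -2.09 in the 3′ UTR (log10 FDR -101). The 3′ UTR peak of Slc25a36 did not pass the threshold, with 0.78 and a log10 FDR of -0.66 in the authors' deposited table.

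Both mitoferrin genes, whose products carry iron for heme and iron-sulfur cluster synthesis, had negative peaks alone. Called peaks of negative sign only were seen in 36.8% of all genes. In the authors' deposited table Slc25a37 stood at -1.67 and -0.80 at 2 positions of its 3′ UTR, and Slc25a28 stood at -0.74. The remaining 6 genes are uncoupling-protein-like, act in mitochondrial dynamics, or were listed as orphans. By their leading peaks 5 were negative and 1 positive, beside 47.6% and 33.6% of all genes. Slc25a46, which acts in mitochondrial dynamics, had in the authors' deposited table a value of -2.67 in exon 7 of 10 (log10 FDR -89.6). Slc25a48 had 2 negative peaks, at -2.34 and -1.75 in the authors' deposited table, which lie 1006 and 290 bp past the RefSeq span of the gene. The authors' deposited table gives -2.27 for Slc25a27 (UCP4; log10 FDR -2.49) and -0.53 for Slc25a34 (log10 FDR -8.62). Slc25a30, related to the uncoupling proteins, was the positive one. Its 2 called 3′ UTR peaks stood at 1.17 and 0.78, and a 5′ UTR peak at 0.62 was not called, in the authors' deposited table.

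The sign of the change went with the annotated feature. In the 5′ UTR 10 of the 12 carrier peaks were positive and called and 1 was negative and called, where 53.4% and 23.0% of all listed 5′ UTR peaks were. In the 3′ UTR 19 of the 31 were negative and 9 positive, beside 48.9% and 32.1% of all listed 3′ UTR peaks. Of the 5 exon peaks 4 were negative and 1 positive, beside 38.6% and 23.9%. The negative share among called peaks was 9.09% for 5′ UTR peaks (95% Wilson interval 1.62 to 37.7) and 67.9% for those of the 3′ UTR (49.3 to 82.1). The same shares over all listed peaks were 30.1% and 60.4%, and both lie inside the carrier intervals. These intervals hold counting error alone. The median change was 0.82 over the 5′ UTR peaks and -0.83 over the 3′ UTR peaks of the carriers. Of the 12 5′ UTR peaks 7 were over 1000 bp wide on the genome, introns included, and with peaks of up to 1000 bp alone none of the 5 called 5′ UTR peaks was negative.

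**Figure D2:**
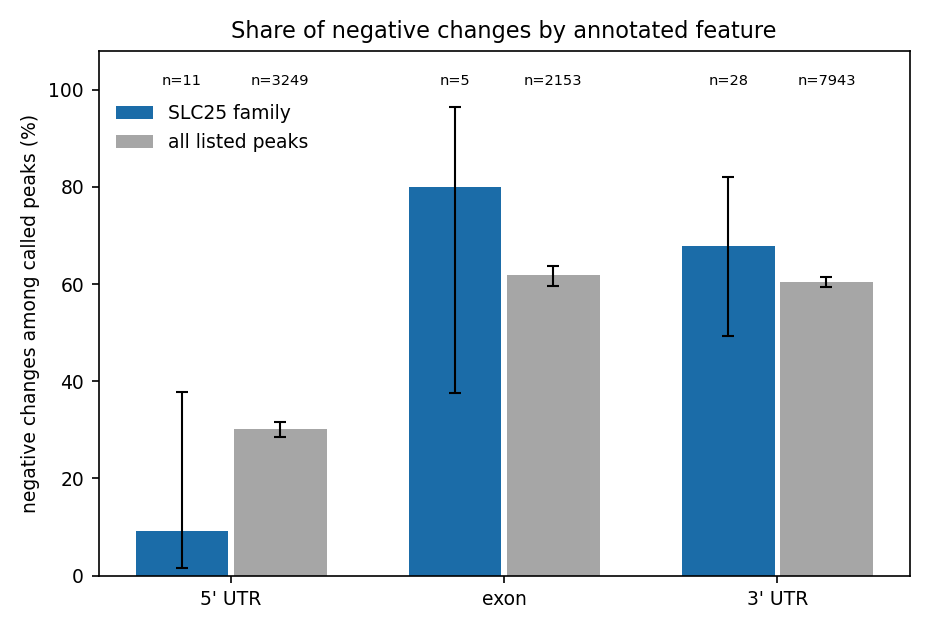
Bars give the share of negative changes (%) among called peaks by annotated feature, for the SLC25 family and for all listed peaks. Error bars are 95% Wilson intervals over peaks and n is the number of called peaks. The carrier bars stand at 9.09% (5′ UTR), 80.0% (exon, 5 peaks) and 67.9% (3′ UTR), beside 30.1%, 61.8% and 60.4% for all listed peaks.

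The contrast was also present inside genes. Called peaks stood in both UTRs of 8 carriers, and in 6 of them the 5′ UTR peak was positive and the 3′ UTR peak negative. These are the 6 genes whose starts are printed above. The 2 peaks of a gene need not lie on the same transcript. In Slc25a11 and Slc25a20 the 5′ UTR peak was assigned to a retained-intron transcript and the 3′ UTR peak to a protein-coding one. Over all 1475 genes with called peaks in both UTRs that pattern was seen in 35.3%, and the opposite one, which none of the 8 carriers showed, in 5.83%. The 3′ UTR minus 5′ UTR difference had a median of -1.91 over the 8 carriers and -0.45 over all 1475 genes. The widest difference was that of Slc25a13, -3.80, followed by Slc25a33 with -3.59 and Slc25a15 with -2.82. The 5′ UTR peaks of these genes span 36096, 11753 and 8582 bp on the genome, so they are not confined to the transcript start. Slc25a13 also had a second called 3′ UTR peak, which was positive at 0.29 in the authors' deposited table. Slc25a1, at 0.06, was the single carrier whose 3′ UTR value lay above its 5′ UTR value, and both of its peaks were positive. The 9 RefSeq starts of these carriers were kept because their wider windows overlapped a called 5′ UTR peak. That 7 of the 9 lay under such a peak was favoured by this choice. In the authors' deposited table the 5′ UTR peaks of these 8 genes ran from 0.72 to 1.50, a narrower range than their 3′ UTR values, -2.67 to 0.90.

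**Figure D3:**
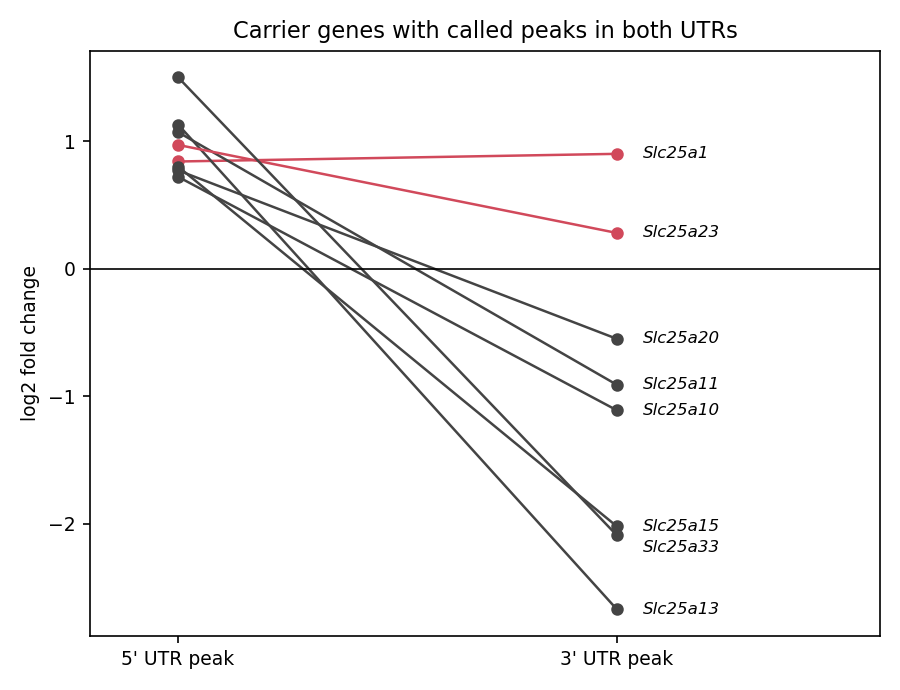
Each line joins the leading called 5′ UTR peak and the leading called 3′ UTR peak of 1 carrier gene (vertical axis, log2 fold change). The 6 dark lines cross 0, from positive 5′ UTR to negative 3′ UTR values, and the 2 red lines, Slc25a1 and Slc25a23, stay above it.

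Genes with called peaks of both signs made up 28.6% of the carriers and 12.4% of all genes. The share of genes with 2 or more listed peaks was 60.7% for the carriers and 44.7% for all genes, and the mean number of listed peaks per gene was 1.71 and 1.70. Neither difference was tested. Among genes with 2 or more called peaks, 8 of 15 carriers (53.3%) and 37.4% of all such genes held both signs. Besides the 6 genes above these were Slc25a42, with a negative 3′ UTR and a positive exon peak, and Slc25a45, with both signs inside the 3′ UTR.

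Within the 3′ UTR the sign also went with how close a peak came to the end of the transcript. This reading was added after the values were seen. Of the 9 called positive 3′ UTR peaks, 7 had their far edge within 50 bp of the RefSeq 3′ end of the gene, against 4 of the 19 negative ones. The 7 belong to Slc25a1, Slc25a3, Slc25a13, Slc25a17, Slc25a23, Slc25a39 and Slc25a45. The peaks of Slc25a23 (0.28) and Slc25a13 (0.29) lie below the median of all listed peaks, 0.34, and that of Slc25a3 (0.36) just above it. With changes centred on that median, the peaks of Slc25a23 and Slc25a13 turn negative. The other 2 positive peaks, both of Slc25a30, lay 2583 and 3300 bp before the end. Among the called 3′ UTR peaks outside this window, 15 of 17 were negative, with a median of -1.67 over the 17, beside 70.7% negative and a median of -1.07 for such peaks of all genes. These include the 2 peaks of Slc25a48 past the end. The 4 negative peaks at the end were those of Slc25a28, Slc25a33, Slc25a34 and Slc25a47. Since the nearest peak outside the window stood 177 bp from the end, a somewhat wider window gives the same division. As shares, 77.8% of the positive and 21.1% of the negative carrier peaks were at the end, beside 51.0% and 22.1% over all genes.

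**Figure D4:**
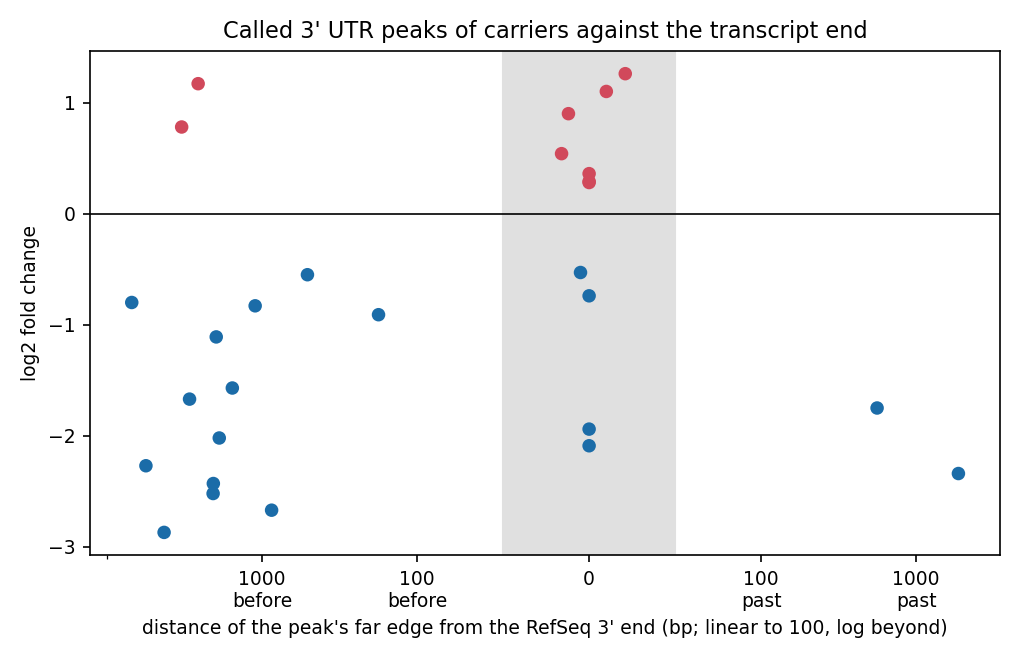
Each point is a called 3′ UTR peak of a carrier, by the distance of its far edge from the RefSeq 3′ end (horizontal axis, bp, linear to 100 and logarithmic beyond) and its log2 fold change. Red points are positive, blue negative, and the shaded band marks 50 bp on either side of the end. The band holds 7 positive peaks (those at 0.28 and 0.29 overlap) and 4 negative ones.

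Genes with 2 peaks in the 3′ UTR show the same order within a gene in part, though both peaks need not lie on the same transcript. In Slc25a13, in the authors' deposited table, the peak at -2.67 lies 867 bp before the end and the one at the end stood at 0.29. For Slc25a45 the authors' deposited table gives -0.83 at 1107 bp before the end and 1.26 at the end. Of the 6 carriers with 2 listed 3′ UTR peaks, the farther one had the higher value in 4, the exceptions being Slc25a37 and Slc25a48, both negative at both positions. Over all 1936 genes with 2 or more listed 3′ UTR peaks, the farthest peak had a higher value than the nearest in 66.2%, close to the 66.7% of the carriers.

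Other genes of mitochondrial transport went both ways. Over all genes 47.6% had a called negative and 33.6% a called positive leading peak. Of 14 further inner membrane transporter genes 9 had a listed peak, 6 with a negative and 3 with a positive leading peak and a median of -0.64. The authors' deposited table gives -1.73 for the serine carrier gene Sfxn1, 0.87 for the pyruvate carrier subunit gene Mpc2 and -2.69 for Sfxn5. Of 12 genes of outer membrane channels and of the machinery that imports carriers, 11 had a listed peak, 6 negative, 4 positive and 1 not called by leading peak, with a median of -0.33. There the authors' deposited table gives -1.57 for the channel gene Vdac3, -2.74 for Timm29 and -1.42 for Tomm70a, the last a receptor for carrier precursors. Of 5 family genes under other symbols (uncoupling proteins and Mtch genes), Mtch2 was positive at 0.42 in the authors' deposited table and Ucp3, at 2 on the log2 scale, was not called (log10 FDR -0.29). The medians of leading peaks of both larger lists, -0.64 and -0.33, lie between that of the carriers, -1.34, and 0, with -0.52 over all genes.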

How the data were processed

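The data were 12 liver libraries (IP and input, Mettl3-deficient and wild type, 3 replicates per group). The submitters' processing notes name HISAT2 2.1.0 and the build mm10; how peaks were called, filtered and compared is not given in the sources used here. The deposited table lists, per the file headers, each peak's log2 fold change, log10 FDR (a score with a floor at -434), p-value (rounded to 2 decimals), position, width and distance to the transcript start in bp. Other measures in the deposited table, the positions, widths and distances, describe each peak and gave the positions against the RefSeq genes.

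Of 17692 rows, 189 had a missing gene name and cells in another order and were left out; none carried a gene ID of the family. Members were matched by symbol, and all 28 symbols matched RefSeq. Counts, medians and shares were computed from the deposited values, with no new test, as no value per library was used. Depth is unknown. Where RefSeq start windows gave no strand (7 of 28 genes), it was read from the deposited distances for 6; over 6479 genes with both, the 2 sources gave the same strand in 94.6%. Every carrier with a called peak was named except 1, which is not reported here by name and stays in the counts, and up to 3 called genes of each further list by smallest FDR, with any list of few members named in full. Members, roles and lists were chosen with earlier results of these data known. Alternatives covered the FDR threshold, a minimum change, centring, width, family definition and the choice of leading peak. Counting steps were tested on simulated data. Python 3.11.15, numpy 2.4.6, pandas 2.3.3, scipy 1.17.1 and matplotlib 3.10.9 were used.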

Additional observations from a re-analysis of the deposited data

How the results depend on the processing

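The 8 results (counts of negative and positive peaks and genes, 2 medians and 2 shares by feature) were recomputed under the alternatives that apply to each. Of 72 recomputed values, 68 stayed within 1.5 times the reported count, or within the 95% interval of the reported median or share, without a change of sign. With a minimum absolute log2 change of 1, the called positive peaks numbered 7 in place of 20 and the genes with a positive leading peak 3 in place of 8, because fewer peaks can pass. With peaks of up to 1000 bp, the negative share of called 5′ UTR peaks was 0 of 5 (0.00%) in place of 9.09%, since the wide Slc25a51 peak drops out. With peaks overlapping the RefSeq span alone (added once the data had been seen), the median over all peaks turned to 0.28 from -0.54, since the 3 peaks left out are all negative. That median was set apart for its change of sign. The median of -1.34 for leading peaks became -0.47 over the mean of each gene's peaks and -0.87 with peaks of up to 1000 bp, and with Mtch2 and Ucp3 added the median over all peaks became -0.125. No paired analysis was possible because the table holds no values per library, and leaving out replicates could not be run for the same reason.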

Other observations

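Some carrier peaks were wide on the genome or lay outside the RefSeq gene, and these would be the first to inspect in the reads. Of the 48 carrier peaks 11 (22.9%) were over 1000 bp wide, beside 33.5% of all listed peaks. The 5′ UTR peaks of Slc25a13, Slc25a33 and Slc25a15 span 36096, 11753 and 8582 bp on the genome, which is 20.5%, 38.9% and 37.2% of the RefSeq span of each gene. The peak of Slc25a46 labelled as exon 7 spans 11408 bp, or 37.6% of its gene, so these labels do not give an exact position. Of the 48 carrier peaks, 41 were assigned to a protein-coding transcript, 3 to a processed transcript, 2 to a retained-intron and 2 to a nonsense-mediated decay transcript. The negative peak annotated to Slc25a47 at chr12:108836076-108836583 overlaps no RefSeq gene. It lies 200 bp upstream of the RefSeq span of Slc25a29, which is on the minus strand and has its start side at 108835876. Slc25a29 is itself a carrier gene with a negative peak.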
